A study of Bos taurus with 12 samples.

Results

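HP, SAA3, LBP, CP, ITIH4 and PTX3, acute phase protein genes known to be transcribed in the mammary gland (MG), were followed across 12 lactating cows. They were taken by gene symbol through the RefSeq accession of each probe, whatever their values, and these 6 of 12639 named genes had 21 of the 43653 probes of a bovine expression array. A 22nd probe, for the milk-type serum amyloid A gene M-SAA3.2, was matched through the synonym SAA3 and is given beside SAA3 as a gene of its own. All cows were multiparous Holsteins in early lactation (24 ± 3 days in milk), and all received 50 µg of Escherichia coli lipopolysaccharide (LPS) in a rear gland of the udder, which was biopsied 24 h later. The 6 CONT cows stayed on a lactation ration, whereas the 6 REST cows ate a ration diluted with barley straw (48% of dry matter) for 4 days, the LPS being given on day 3. The comparison asks whether feed restriction altered the MG response to LPS. No gland without LPS was analysed here, so the induction itself was not measured.

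Acute phase proteins are secreted proteins whose concentration in blood changes during infection or tissue injury. The liver makes most of them, under the control of IL6, IL1 and TNF acting through STAT3, C/EBP and NF-kB transcription factors, but the bovine udder also transcribes several, and haptoglobin and the milk form of serum amyloid A are used as markers of mastitis in milk. Haptoglobin binds free haemoglobin, LBP hands LPS to CD14 and TLR4, ceruloplasmin carries copper and oxidises iron, and PTX3 is a pentraxin produced by tissue and myeloid cells at the site of inflammation.

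Values are log2 signals minus the 75th percentile of the array, and each gene is represented by its brightest probe. They are compared between cows within a gene and not between genes. The brightest probe of all 6 genes was well above background on all 12 arrays, as were 16 of the 21 probes. The arrays had a 75th percentile intensity of 577.1 to 1184 in CONT and 386.9 to 1074 in REST, with 57.6 to 78.1% of probes well above background. REST cows 2 and 5 had the lowest of these percentiles (386.9 and 508.4). These same 2 cows stood apart from the other 10 in several of the genes, and the difference of each of the 6 genes and M-SAA3.2 is therefore also given without them. These cows were left out for their low values in the same genes, so that an upward shift is fixed by the choice and no p is given for it. The number of arrays limits the precision. In biopsies of whole tissue, fewer cells of a type and less RNA per cell cannot be told apart.

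No difference between the diets was detected in any of the 6 genes at this number of cows. The limma test with Westfall-Young adjustment called 0 of 43653 probes (0%), and so did the Benjamini-Hochberg adjustment (0%), while 1138 probes (2.61%) had an unadjusted p under 0.05. REST had the higher mean in 755 of these (1.73% of the array) and the lower mean in the other 383 (0.877%). None of the 21 probes of the 6 genes reached that unadjusted threshold, the lowest unadjusted p being 0.277. The ranges of the 2 groups overlapped in every one of these 21 probes, whereas 52 probes (0.119%) of the array had groups that did not overlap. The mean was higher in REST in 1 of the 6 genes and the median in 3, and the SD was larger in REST in 5.

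**Figure D1:**
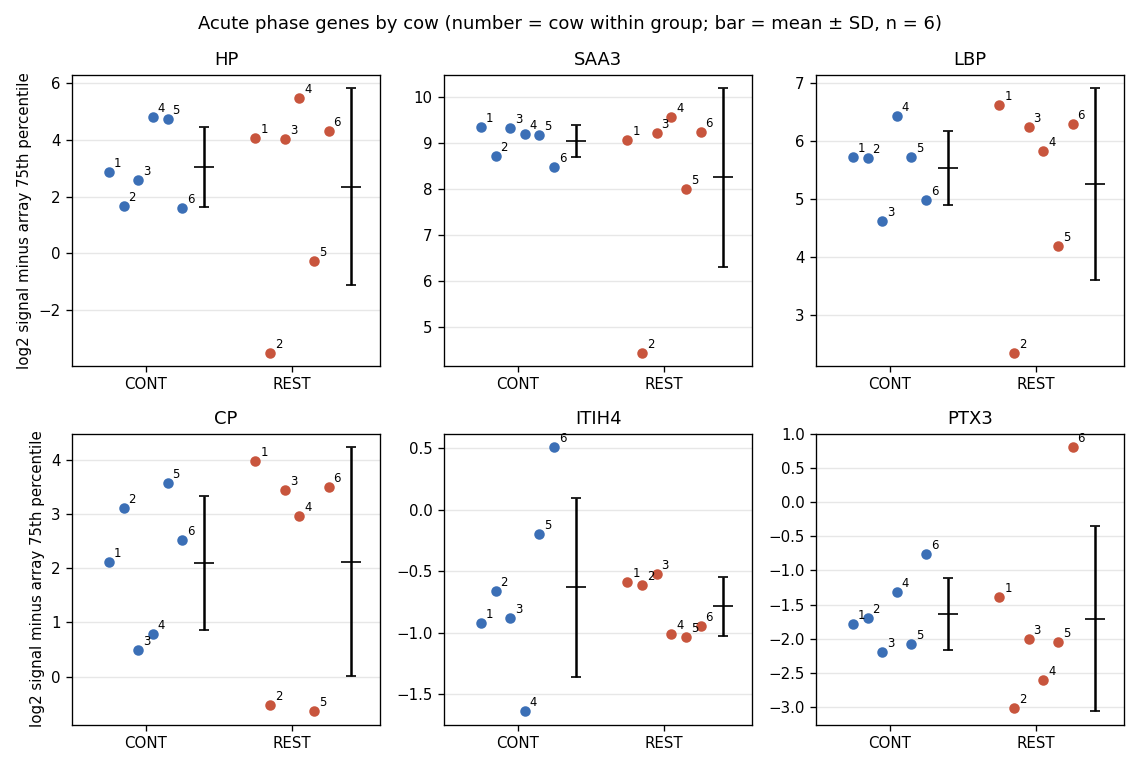
Log2 signal minus the array's 75th percentile (vertical axis) of the 6 acute phase genes in 6 CONT and 6 REST cows, 1 numbered point a cow, with the bar giving the mean ± SD. The groups overlap in every gene, and REST cow 2 is the lowest point for HP, SAA3, LBP and PTX3.

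HP, which encodes haptoglobin, had the widest spread of the 6 genes. In CONT its level was 1.61 at the lowest, 2.72 at the median and 4.80 at the highest. In REST the corresponding values were −3.51, 4.04 and 5.48. The groups overlapped: 4 of the 6 REST cows lay above the CONT mean, while REST cow 2 (−3.51) and REST cow 5 (−0.27) lay below all CONT cows. Mean levels were 3.04 ± 1.42 in CONT and 2.35 ± 3.48 in REST (SD, n = 6 each), so REST minus CONT was −0.69 (SE 1.37, adjusted p = 1, limma; exact permutation p = 0.682, two-sided). The mean and the median thus pointed in opposite directions, the median being 1.32 higher in REST. The highest and the lowest cow were 506-fold apart, against 9.11-fold within CONT, and this range was 192-fold after normexp background correction. In REST cow 2 the raw signal was 80, above a local background of 48. The 506-fold range thus rests on a value near background. The 2 other probes of the gene gave differences of −0.83 and −0.63. Both were well above background in 6 CONT and 5 REST cows, and they read −4.80 and −4.65 in REST cow 2.

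Without REST cows 2 and 5 the HP difference became 1.43. Leaving out cow 2 alone turned it to 0.48, and leaving out cow 5 alone gave −0.17. Both cows were hybridised on slide 2, together with REST cow 4 and CONT cow 1, and the difference within that slide was −2.29. It was 0.32 on slide 1 (3 CONT and 1 REST) and 2.08 on slide 3 (2 CONT and 2 REST). With slide as a block it was 0.24 (SE 1.44).

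SAA3, a serum amyloid A gene expressed outside the liver, varied less than HP. In CONT it ranged from 8.47 to 9.34 with a median of 9.19, and in REST from 4.44 to 9.56 with a median of 9.13. All CONT cows and 4 REST cows lay between 8.47 and 9.56, below which were REST cow 5 (7.99) and, far lower, REST cow 2 (4.44). Mean levels were 9.04 ± 0.36 and 8.25 ± 1.94 (SD, n = 6 each), and the difference was −0.79 (SE 0.73, adjusted p = 1, limma; exact permutation p = 0.461, two-sided). Over its 4 probes the difference ran from −1.07 to −0.79. Without both cows it was 0.23, without cow 2 alone −0.03, and with slide as a block −0.47 (SE 0.80). The brightest probe read at a median of 71.0% of the saturation value and up to 94.2%, although no array was saturated. Whether this narrowed the differences among the high cows was not tested. M-SAA3.2 followed SAA3 closely over the cows (r = 0.998), and its difference was −0.83 (SE 0.76) with all cows and 0.21 without both. Whether the probes tell the transcripts of these 2 genes apart was not tested, so they are not taken as independent values.

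LBP encodes the LPS-binding protein, which presents bacterial endotoxin to its receptor complex. Its CONT values were 4.62, 5.72 and 6.42 at the lowest, median and highest, and its REST values 2.36, 6.03 and 6.61. REST cows 2 (2.36) and 5 (4.20) were again the lowest of the 12, and the other REST cows lay among or above the CONT cows. Mean levels were 5.53 ± 0.64 and 5.25 ± 1.66 (SD, n = 6 each), and differed by −0.28 (SE 0.65, adjusted p = 1, limma; exact permutation p = 0.740, two-sided). Without both cows the difference of LBP was 0.70, and without cow 2 alone it was 0.30. Within slides the differences were 0.65, −1.61 and 1.46 for slides 1, 2 and 3.

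CP encodes ceruloplasmin, a copper-carrying ferroxidase. It was spread widely in both groups: from 0.49 to 3.57 around a median of 2.31 in CONT, and from −0.64 to 3.98 around a median of 3.21 in REST. REST cows 5 (−0.64) and 2 (−0.52) were the lowest of the 12, while the other 4 REST cows lay between 2.96 and 3.98. Mean levels were 2.10 ± 1.24 and 2.12 ± 2.12 (SD, n = 6 each), and differed by 0.027 (SE 0.90, adjusted p = 1, limma; exact permutation p = 0.983, two-sided). Its 4 probes gave −0.21 to 0.53, the 0.53 coming from a probe well above background in only 4 CONT and 4 REST cows. With slide as a block the difference was 0.79 (SE 0.88), from 1.49, −1.50 and 1.98 within slides 1, 2 and 3. It was −0.34 without REST cow 1, 0.58 without REST cow 5 and 1.38 without REST cows 2 and 5.

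ITIH4, an inter-alpha-trypsin inhibitor heavy chain that is an acute phase protein of cattle, ranged from −1.64 to 0.51 around a median of −0.77 in CONT, and from −1.04 to −0.52 around −0.78 in REST. All REST cows lay within the CONT range, REST cow 2 (−0.61) included. Mean levels were −0.63 ± 0.73 and −0.79 ± 0.24 (SD, n = 6 each), and the difference was −0.16 (SE 0.30, adjusted p = 1, limma; exact permutation p = 0.628, two-sided). Its 2 probes did not rank the cows alike (r = −0.56), and the other probe gave a difference of −0.085. The difference was 0.070 without CONT cow 6 and −0.14 without REST cows 2 and 5.

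PTX3, the long pentraxin, ranged from −2.19 to −0.76 (median −1.74) in CONT and from −3.02 to 0.81 (median −2.03) in REST. REST cow 6 was the highest of the 12 cows and REST cow 2 the lowest, with the remaining REST cows among the CONT cows or just below them. Mean levels were −1.64 ± 0.53 and −1.71 ± 1.36 (SD, n = 6 each), and differed by −0.073 (SE 0.54, adjusted p = 1, limma; exact permutation p = 0.922, two-sided). The other probes gave −0.014 and 0.43, the latter being well above background in 1 CONT and 2 REST cows. The difference was −0.58 without REST cow 6, 0.19 without REST cow 2 and 0.34 without REST cows 2 and 5.

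**Figure D2:**
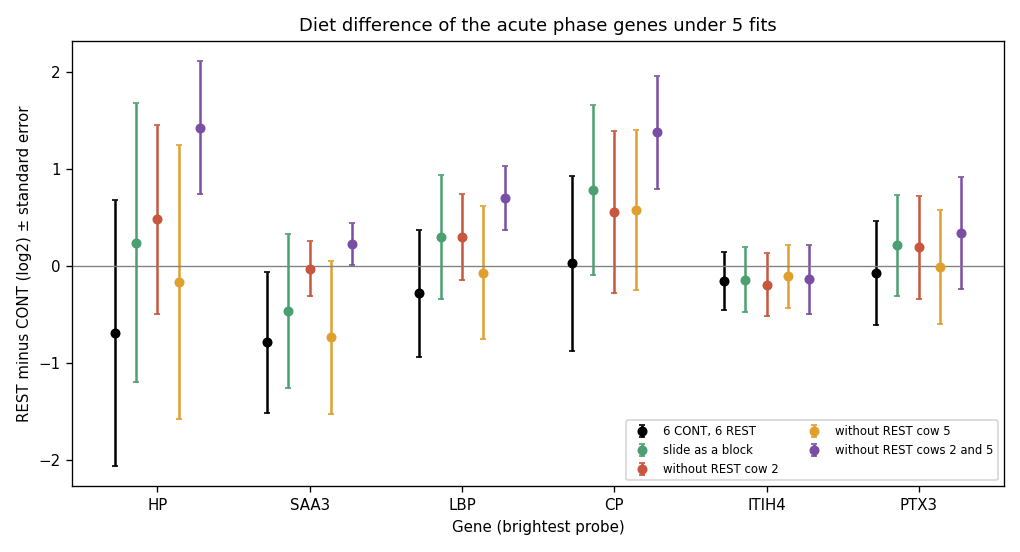
REST minus CONT difference (log2, vertical axis) of each acute phase gene under 5 fits, points being estimates and bars their standard errors. For HP, SAA3, LBP and PTX3 the estimate lies below 0 with all cows and above 0 without REST cows 2 and 5.

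The spread among the cows was wide for 5 of the genes. The SD over the 12 cows was 2.56 for HP, larger than in 99.98% of the 24086 probes that were well above background on all arrays, whose median SD was 0.34. It was 1.66 for CP (larger than in 99.6%), 1.39 for SAA3 (99.0%), 1.21 for LBP (98.2%), 0.98 for PTX3 (96.4%) and 0.52 for ITIH4 (77.2%). REST cow 2 was the lowest of the 12 in 4 of the 6 genes and in 17 of their 21 probes, compared with 16.4% of those 24086 probes. The cow most often lowest over those probes was CONT cow 6 (21.6%), which was lowest in 0 of the 6 genes. The map of deviations by cow shows these low values beside those of REST cow 5, which were smaller deviations in HP, SAA3, LBP and PTX3.

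**Figure D3:**
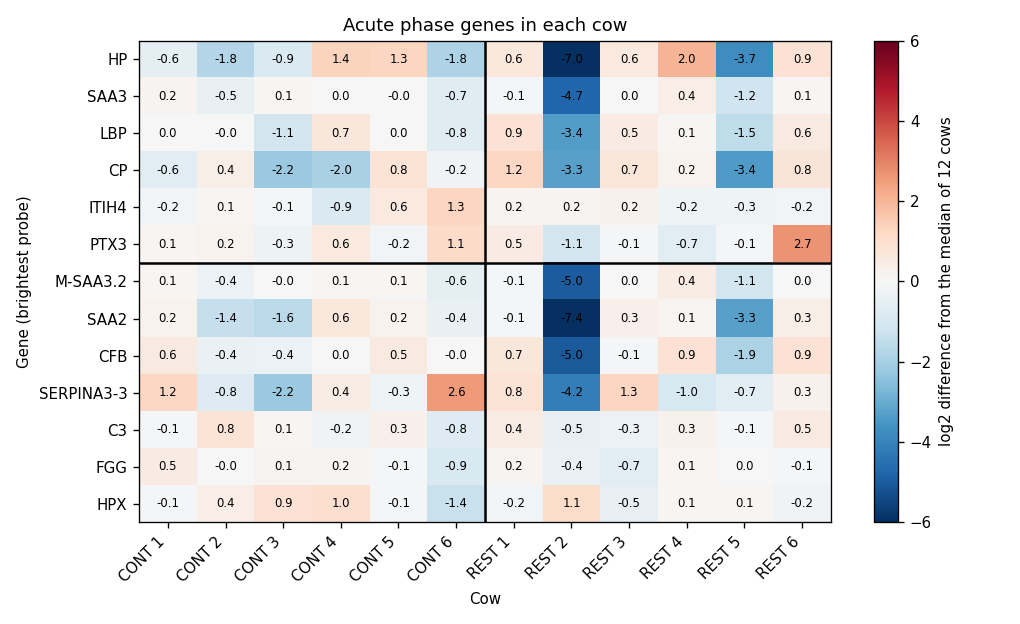
Deviation of the 6 genes (upper rows) and of 7 other acute phase genes (lower rows) in each cow (columns) from each gene's median over the 12 cows, in log2 units, with the value printed in each cell and CONT cows to the left of the line. REST cows 2 and 5 are low in HP, SAA3, LBP and CP, cow 5 less so than cow 2 except in CP.

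Several of the genes varied together across the cows. Of 15 pairs, 5 passed a Benjamini-Hochberg threshold of 0.05 by Pearson's r and none did by Spearman's rho, whose lowest adjusted p was 0.0532. HP and LBP had r = 0.91 (permutation p = 0.00027, adjusted p = 0.00202) and rho = 0.79 (permutation p = 0.00355). HP and SAA3 had r = 0.90 (permutation p = 9e-05, adjusted p = 0.00135) and rho = 0.68 (permutation p = 0.0185). SAA3 with LBP (r = 0.87, rho = 0.48), LBP with CP (r = 0.77, rho = 0.67) and HP with CP (r = 0.69, rho = 0.55) had adjusted permutation p values of 0.0116, 0.0116 and 0.0279. With slide means removed, 3 of the 5 pairs kept their call: r was 0.89 for HP and LBP, 0.88 for HP and SAA3 and 0.86 for SAA3 and LBP. LBP with CP (r = 0.68, adjusted permutation p = 0.0528) and HP with CP (r = 0.60, adjusted permutation p = 0.104) lost it.

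REST cows 2 and 5 were the 2 cows farthest from the median in these genes, and leaving out cows that are low in both genes of a pair tends to lower r. Without them r was 0.72 for HP and SAA3, 0.61 for HP and LBP, 0.49 for LBP and CP, 0.23 for SAA3 and LBP and 0.21 for HP and CP, and 0 of the 15 pairs passed the adjustment. Within the 6 CONT cows r was 0.62 for both HP and SAA3 and HP and LBP, 0.21 for SAA3 and LBP, 0.14 for LBP and CP, and −0.12 for HP and CP. ITIH4 and PTX3 entered none of the 5 pairs, the r of ITIH4 with the others lying between −0.19 and 0.35. Within the 6 CONT cows, r was −0.69 for SAA3 and ITIH4, −0.73 for SAA3 and PTX3 and 0.62 for CP and ITIH4, and without REST cows 2 and 5 these were −0.68, −0.32 and 0.42. CONT cow 6, whose array had the highest 75th percentile (1184), was the lowest CONT cow for SAA3 and the highest for ITIH4 and PTX3. The SAA3 probe read at a median of 71.0% of saturation, and the ITIH4 probes did not rank the cows alike. The r values within CONT were not tested.

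**Figure D4:**
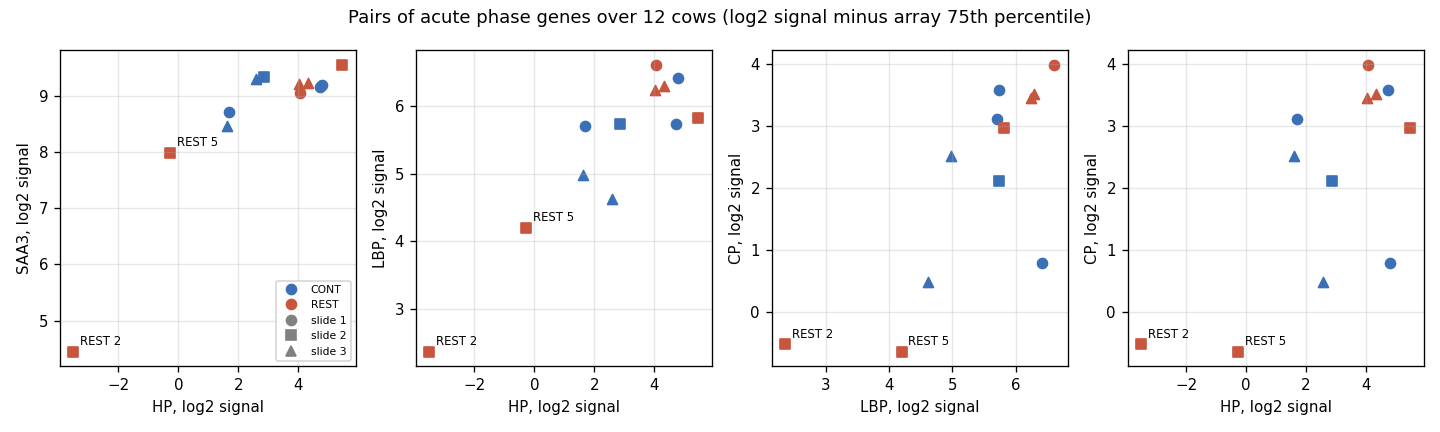
Log2 signal of pairs of acute phase genes against each other, 1 point a cow, coloured by diet and shaped by slide. REST cows 2 and 5 lie at the lower left of each panel, away from the other 10 cows.

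The genes most like each of the 6 over the 12 cows were sought among 8994 named genes with a probe well above background on all arrays; the r values are descriptions over the same cows and arrays, REST cow 2 among them. For HP these included GPX1 (r = 0.96), SAA2 (0.94), CFB (0.92) and IRF8 (0.91). For SAA3 they were the MHC class I gene JSP.1 (0.96), SOD2 (0.96), CFB (0.96), TUBA1C (0.95) and SAA2 (0.94). JSP.1 was at −2.86 in REST cow 2 and between 7.26 and 8.89 in the other 11 cows. For LBP they included GALNS (0.97), TPPP3 (0.95), PSME2 (0.94) and PRDX2 (0.94). VRK2 (0.94) led for CP, PHLDB3 (0.94) for ITIH4 and FASTKD2 (0.91) for PTX3.

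Among other positive acute phase genes, 6 of 23 measured were higher and 17 lower in REST by their mean, with a median difference of −0.06 beside −0.04 over all 12639 named genes. This split was not stable: 12 of 23 were higher with slide as a block, 12 without REST cows 2 and 5, 12 without REST cow 3 alone and 4 without REST cow 1 alone. The median was −0.23 without CONT cow 6. None passed either adjustment, and 1 had an unadjusted p under 0.05, as had 334 of all named genes (2.64%), with 205 higher (1.62%) and 129 lower (1.02%). That gene was ITIH3 (1.02, SE 0.44), well above background on only 2 arrays. Among the list's genes well above background on all 12 arrays, the differences largest in size were in SAA2 (−1.28, SE 1.19), CFB (−0.84, SE 0.87), which encodes complement factor B, and M-SAA3.2. SAA2 was at −0.45 in REST cow 2 and 3.68 in REST cow 5, and CFB at 0.94 and 4.07. Without REST cow 2 the difference was −0.13 for SAA2 and 0.02 for CFB. C3, the central complement component, differed by 0.04 (SE 0.27), FGG, a fibrinogen chain, by −0.10 (SE 0.24) and the haem-binding HPX by −0.06 (SE 0.39), and these were −0.13, −0.28 and −0.36 without CONT cow 6. Of 7 negative acute phase genes, whose proteins fall in blood during inflammation, 4 were higher and 3 lower, with a median of 0.07 (−0.12 without REST cow 6). APOA1 differed by 0.50 (SE 0.45), and TF and RBP4 by −0.28 each. Leaving out each cow in turn, the difference ran from 0.27 to 0.80 (without REST cow 2) for APOA1. It ran from −0.60 (without CONT cow 6) to −0.05 for TF and from −0.48 to 0.03 (without REST cow 2) for RBP4.

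Among the genes that induce acute phase transcription, none passed either adjustment. Of 29 cytokines, receptors and transcription factors, 13 were higher and 16 lower in REST, with a median of −0.02 (0.08 without REST cow 2), and 1 had an unadjusted p under 0.05: IL1A, at −0.78 (SE 0.30), well above background on 8 of 12 arrays. The share over all named genes was the 2.64% given above. TNF differed by −0.90 (SE 0.52), the IL1 antagonist IL1RN by −0.76 (SE 0.71) and the oncostatin M receptor OSMR by −0.59 (SE 0.39). REST cow 2 was the lowest cow for each of these 3, as in 11 of the 21 genes of the list well above background on all arrays, and without it the differences were −0.55, −0.25 and −0.32. STAT3 differed by 0.15 (SE 0.30; 0.01 without CONT cow 2) and CEBPB by 0.21 (SE 0.37; −0.03 without CONT cow 6). Of 20 binding partners and receptors, 13 were higher and 7 lower, with a median of 0.05 (0.20 without REST cow 2). The haptoglobin-haemoglobin receptor CD163 differed by 0.85 (SE 0.41), BPI, an LPS-binding relative of LBP, by 1.12 (SE 0.67), the scavenger receptor CD36 by 0.72 (SE 0.63) and the LPS co-receptor CD14 by 0.37 (SE 0.42). Without REST cow 6 the difference was 0.51 for CD163 and 0.56 for BPI, and without CONT cow 6 it was 0.28 for CD36 and 0.06 for CD14.

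Most neutrophil, macrophage and fibroblast markers were also low in REST cow 2, whereas the macrophage marker MSR1 was highest in it (2.25) and 0 of 8 endothelial markers were lowest in it. The summed signal of 11 neutrophil markers was 4.40 to 7.48 (log2) in CONT and 2.84 to 7.63 in REST, the lowest being REST cow 2; REST cow 5 was at 4.87. Of 8 of these markers well above background on all arrays, 6 were lowest in REST cow 2, as were 5 of 7 macrophage and 6 of 8 fibroblast markers. The summed macrophage signal was 3.28 to 4.11 in CONT and 3.18 (REST cow 2) to 4.46 in REST. The summed fibroblast signal was 5.78 to 6.16 in CONT and 4.74 to 6.25 in REST, with REST cow 2 at 4.74 and REST cow 5 at 5.14. That of 12 milk secretory epithelium markers was highest in REST cow 2 (12.8), against 10.8 to 12.4 in CONT. The array of this cow had the lowest 75th percentile (386.9), which is subtracted from each value. The keratin genes KRT8 (2.40) and KRT18 (0.96) of this list were lowest in that cow, whereas KRT19 (7.34) was highest in it. All 12 of these markers were well above background on all arrays. Between diets, 8 of 8 endothelial markers were higher in REST by their mean (median 0.43), and CONT cow 6 was the lowest cow in each. Without CONT cow 6 all 8 means were still higher in REST, but the median fell to 0.10. Of 8 fibroblast markers 6 were lower (median −0.49), 3 of them with an unadjusted p under 0.05, and 1 endothelial and 2 lymphocyte markers that were higher also had one, beside the 2.64% of all named genes given above (1.62% higher, 1.02% lower). The fibroblast median was −0.27 with slide as a block and −0.22 without REST cows 2 and 5, and ran from −0.65 to −0.35 leaving out each cow in turn. The medians were 0.19 for neutrophil, 0.07 for macrophage, 0.27 for adipocyte, −0.04 for lymphocyte, 0.28 for milk secretory epithelium, −0.18 for myoepithelial and −0.02 for hepatocyte markers. Single cows moved these: the epithelium median was 0.05 without CONT cow 6 (7 of 12 markers higher, against 10), the neutrophil and macrophage medians −0.17 and −0.18 without REST cow 6, the myoepithelial median 0.09 and the lymphocyte median 0.13 without CONT cow 5, and the hepatocyte median −0.15 without CONT cow 6. Of 10 hepatocyte markers, 4 (TTR, APOA2, APOC3 and SERPINC1) cleared background on each of the 12 arrays, whereas ALB did so on 4 arrays. No marker list gave a call after either adjustment. The part of tissue composition and of array brightness in the acute phase values was not tested, nor was that of array brightness or saturation in the marker values.

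**Figure D5:**
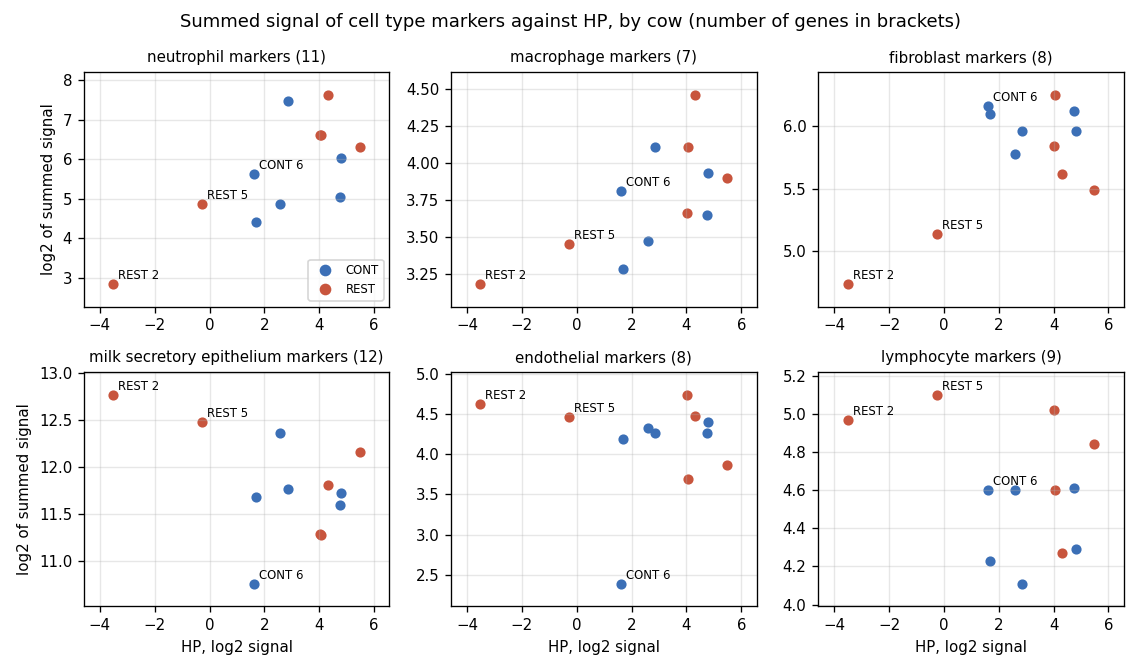
Log2 of the summed signal of 6 cell type marker lists (vertical axes) against the log2 signal of HP (horizontal axes), 1 point a cow, with the number of genes in brackets. REST cow 2, at the far left, is lowest for the neutrophil, macrophage and fibroblast lists and highest for milk secretory epithelium.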

How the data were processed

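RNA of 12 mammary biopsies (6 CONT, 6 REST) was hybridised by the authors to a one-color bovine array, and images were read with Agilent Feature Extraction 11.0.1.1 per the file headers. The deposited values are fluorescence intensities per spot, already background-corrected by the authors' software. Here control and outlier spots were left out, log2 of the processed intensity was shifted by each deposited array's 75th percentile, and spots of a probe were averaged. Probes were named through RefSeq accessions. limma 3.58.1 (R 4.3.3) was fitted over all 43653 probes. The Westfall-Young adjustment drew 100 of the 462 distinct divisions of the cows. Single probes had exact permutation tests, which cannot go below 0.00216, and pairs of genes had 100000 resamples. The threshold was an adjusted p of 0.05. The script was tested on simulated data.

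The members and gene lists were chosen with earlier results of these data known. Named genes were all members, the 3 largest differences of each list among genes well above background on all arrays, and the 5 genes most like each member, of which some are not reported here; any others named (ITIH3, IL1A, C3, FGG, HPX, STAT3, CEBPB, CD14, ALB, APOC3, KRT8, ORM1, SERPINA3-3) were chosen after their values were seen. Alternatives were normexp (offset 50), quantile scaling, the authors' value table, a filter on dim probes, outlier spots kept, gene means, a variance trend, slide as a block, and each cow left out. Leaving out REST cows 2 and 5 together was chosen after seeing the data. Each sample was a different cow.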

Additional observations from a re-analysis of the deposited data

Results flagged for a closer look

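In REST, cow 2 lay far from the other 5 cows for SAA3 (4.44, the next lowest being 7.99) and for M-SAA3.2 (3.79, the next lowest being 7.68), by Dixon's test of the extreme value. Of 14 groups tested these 2 stood out, where chance gives about 1 in 20, or 0.7. Their 2 values come from related transcripts in 1 cow. The cow's array had the lowest 75th percentile intensity (386.9), and the part of this in its values was not tested.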

How the results depend on the processing

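The direction of several differences depended on few cows and on the slide. With slide as a block the difference turned to 0.24 for HP, 0.30 for LBP and 0.21 for PTX3, and moved to 0.79 for CP and −0.47 for SAA3; with probes averaged per gene it was 0.11 for PTX3. Without REST cows 2 and 5 it was 1.43 for HP, 0.23 for SAA3, 0.70 for LBP, 0.34 for PTX3 and 0.21 for M-SAA3.2, and r of SAA3 and CP turned to −0.16. The cause was not tested. Of the 6 genes, 2 were higher in REST with gene means, 4 with the block and 5 without both cows, against 1; 8, 3 and 0 pairs passed, against 5. Leaving out each cow in turn, differences ran from −1.32 to 0.48 for HP, −1.05 to −0.029 for SAA3, −0.55 to 0.30 for LBP, −0.34 to 0.58 for CP, −0.36 to 0.070 for ITIH4, −0.58 to 0.19 for PTX3 and −1.11 to −0.025 for M-SAA3.2; 0 to 4 genes were higher in REST (4 without REST cow 2, 3 without CONT cow 6) and 2 to 6 pairs passed (2 without REST cow 2, 3 without REST cow 5). Probes with an unadjusted p under 0.05 numbered 379 under normexp and 823 to 1738 without a cow (1708 without REST cow 1, 1738 without REST cow 6), and 0 passed the Westfall-Young adjustment in any. Counts of list genes higher in REST moved too. With slide as a block they were 12 for other positive acute phase genes (from 6), 7 for lymphocyte (from 4) and 2 for myoepithelial markers (from 1). Without REST cows 2 and 5 they were 12 for other positive acute phase genes, 10 for neutrophil (from 6), 7 for macrophage (from 4), 1 for fibroblast (from 2) and 2 for myoepithelial markers. With the filter on dim probes, which tests fewer genes, they were 2 each for other positive and negative acute phase genes and for adipocyte and hepatocyte markers; normexp gave 3 for adipocyte and gene means 2 for myoepithelial markers. Leaving out each cow in turn they ran from 4 (REST cow 1) to 12 (REST cow 3) for other positive acute phase genes, 2 (REST cow 6) to 8 for neutrophil, 3 to 6 (REST cow 2) for macrophage, 4 to 7 (CONT cow 6, REST cow 2 or REST cow 5) for lymphocyte, 1 to 2 for fibroblast, 0 to 5 (CONT cow 5) for myoepithelial and 3 to 8 (CONT cow 5) for hepatocyte markers. No paired analysis was possible because the labels give the cows no replicate numbers that pair them.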

Other observations

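CONT cow 6 stood apart in 3 genes of the acute phase lists, chosen after their values were seen. TTR, which encodes the thyroid hormone carrier transthyretin, was at 5.71 in this cow and between 1.67 and 4.36 in the other 11. ORM1, the alpha-1-acid glycoprotein gene, was at 0.80 against −4.24 to −0.78, and the serpin SERPINA3-3 at 4.06 against −2.67 to 2.79. ALB was at −5.45 in this cow, within the range of the others (−7.57 to −3.87).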
